A study of Mus musculus with 10 samples.

Results

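The Rhox genes encode homeobox transcription factors and sit side by side in one cluster on the mouse X chromosome. Their expression was followed here in RNA-Seq libraries of 5 mouse embryonic stem cell (mESC) lines. The genes were chosen by name: 10 Rhox symbols were listed, and 9 of them have a row in the table of 20325 genes. The expression of *Rhox5* was not analysed here. Of the 9 listed genes with a row, 6 (*Rhox1*, *Rhox2a*, *Rhox4b*, *Rhox6*, *Rhox9* and *Rhox13*) had a level of 1 CPM (the expected count scaled to the library's total) or more in 2 or more libraries and were tested among 13201 genes. The remaining 3 (*Rhox10*, *Rhox11* and *Rhox12*) were measured but not tested. The table holds 31 Rhox genes in all, 15 of them tested, and the 22 that were not listed are given as counts and ranges.

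The name Rhox stands for reproductive homeobox on the X chromosome, because the genes are known mostly from testis, epididymis, ovary and placenta. Parts of the cluster exist in tandem copies (*Rhox2*, *Rhox3* and *Rhox4*) that are nearly identical in sequence. In embryonic cells the cluster is known as a region that is kept silent with the help of DNA methylation, and it is often used to read out the loss of that silencing.

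Polyadenylated RNA was sequenced from 5 mESC lines with 2 replicates each, and the study asked which genes respond to the histone chaperone DAXX and to its cargo, histone H3.3. The first pair of lines, of strain 129/SvEv, comprised cells with the genotype Daxx -/- and the same cells carrying a WT *Daxx* transgene (DAXX WT line). The other 3 lines, of strain 129 x C57BL/6J, comprised H3.3 KO cells, H3.3 KO cells with a WT H3.3 transgene (H3.3 WT line) and H3.3 KO cells with an H3.3 transgene whose name the labels give as L126A-L130A (L126A-L130A line, 2 substitutions at sites of the histone that the study's text spells with I at the second). All cells were grown without feeders in 2i and LIF. The transgenes carried a FLAG or a FLAG and HA tag, were driven by the EF1 promoter of an integrated lentivirus and were kept by puromycin selection, and the cells were taken within weeks of transduction. No library of unmodified cells was analysed here. Whether the KO lines carried an empty vector is not given in the sources used here, so transduction and transgene cannot be told apart. Nothing in the labels says whether the 2 replicates of a line came from separate transductions, and p-values measure the spread between these libraries only.

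The library totals lay between 15463625 and 21396585 expected counts, so that 3 counts, taken as the limit of detection per library, were equal to between 0.140 and 0.194 CPM. The targeted genes were read first. *Daxx* was at 74.4 and 77.3 CPM in the libraries labelled Daxx-/-, within its range in the H3.3 lines (61.5 to 96.7 CPM), and at 195 and 208 CPM with the *Daxx* transgene. *H3f3a*, one of the genes for H3.3, did not exceed 11.4 CPM in any H3.3 line and was between 390 and 498 CPM in the Daxx pair. *H3f3b*, the other one, was at 525 and 749 CPM in the libraries labelled H3.3 KO, above its range in the Daxx pair (85.1 to 388 CPM). Counts summed over a gene do not show which part of it is deleted, so for *Daxx* and *H3f3b* they check no label, and the lines are named here as their labels name them. The pluripotency markers summed to between 5620 and 8764 CPM in every library (9 of 10 markers with a row, including *Pou5f1* and *Nanog*). At an adjusted p under 0.05 and a difference of 2-fold or more, edgeR called 0 of the 9 in any comparison between lines. Between the KO lines, *Klf4* (log2 difference 0.98, adjusted p = 0.00243, edgeR), *Sox2* (0.75), *Esrrb* (0.44) and *Tdgf1* (0.72) passed that p alone, higher in H3.3 KO. *Pou5f1* (-0.11) and *Dppa5a* (-0.25) went the other way and did not pass it. The 4 Y-linked markers summed to no more than 0.113 CPM in the 4 libraries of the Daxx pair. They summed to between 119 and 132 CPM in H3.3 KO, 193 and 268 CPM in H3.3 WT and 317 and 393 CPM in the L126A-L130A line, so Y-linked RNA was unequal among the H3.3 lines, and *Ddx3y* and *Uty* were called higher in L126A-L130A than in H3.3 KO. *Kdm5d* alone of the 4 went the other way, with 0.129 and 0 CPM in L126A-L130A against 1.64 and 1.23 CPM in H3.3 KO. The part of Y-linked RNA in the Rhox levels was not tested.

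Promoter windows are shown for the 4 listed genes whose levels differed most between lines, each with its highest mean in Daxx-/-. Each is the 250 bases before the start of the gene from RefSeq (build GRCm38.p6), written along the gene's own strand, with each CG in capitals.
Rhox1, chrX:37222259-37222508, minus strand: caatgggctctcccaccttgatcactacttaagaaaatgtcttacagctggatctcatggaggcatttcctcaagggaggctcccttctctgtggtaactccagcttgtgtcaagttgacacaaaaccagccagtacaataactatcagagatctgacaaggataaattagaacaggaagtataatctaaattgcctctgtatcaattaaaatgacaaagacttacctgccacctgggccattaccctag
Rhox2a, chrX:37244742-37244991, plus strand: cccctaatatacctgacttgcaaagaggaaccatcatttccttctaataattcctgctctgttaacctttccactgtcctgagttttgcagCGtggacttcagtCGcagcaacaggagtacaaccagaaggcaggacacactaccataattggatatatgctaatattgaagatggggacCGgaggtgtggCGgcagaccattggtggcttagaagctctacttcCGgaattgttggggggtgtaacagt
Rhox4b, chrX:37432244-37432493, plus strand: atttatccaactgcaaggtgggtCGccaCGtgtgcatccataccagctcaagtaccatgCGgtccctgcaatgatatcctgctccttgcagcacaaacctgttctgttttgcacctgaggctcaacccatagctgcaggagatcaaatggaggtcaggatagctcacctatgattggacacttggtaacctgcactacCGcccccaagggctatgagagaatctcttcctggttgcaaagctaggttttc
Rhox13, chrX:38120590-38120839, plus strand: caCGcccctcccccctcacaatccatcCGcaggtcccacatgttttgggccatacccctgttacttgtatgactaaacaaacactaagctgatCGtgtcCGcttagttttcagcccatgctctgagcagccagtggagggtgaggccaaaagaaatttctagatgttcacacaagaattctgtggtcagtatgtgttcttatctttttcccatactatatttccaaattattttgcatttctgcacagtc
Each of these windows holds fewer CG sites than the median promoter window. That of *Rhox1* has 0, that of *Rhox2a* has 5, and those of *Rhox4b* and *Rhox13* have 4 each. The median over 32851 promoter windows of the same length was 6, and 55.6% of them hold 5 or more CG sites. Windows were found for 24 Rhox genes, *Rhox5* included, with between 0 and 8 CG sites and a median of 4.5. *Rhox6* and *Rhox9* were not among them. The letters CACGTG, which read the same on both strands and overlap the CG count, were found in 4 of the 24 Rhox windows, those of *Rhox4b*, *Rhox4e*, *Rhox4f* and *Rhox4g*, against 6.02% of all windows. The letters TCCCGC were found on neither strand in any of the 24, against 16.9% of all windows. No methylation was measured in these libraries.

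Most of the cluster was low in these stem cells, and the line in which it was highest was Daxx-/-. Per kilobase of the longest annotated transcript, the highest levels of the listed genes there were those of *Rhox2a* (between 23.2 and 32.7 CPM per kb), *Rhox13* (21.3 and 22.9) and *Rhox1* (8.70 and 12.2). *Rhox2b*, a copy that was not listed, lay between 8.53 and 12.7 CPM per kb. On the same per-length scale *Rhox10* lay between 0.884 and 1.86, *Rhox6* between 0.878 and 0.953 and *Rhox9* between 0.396 and 0.779 CPM per kb in that line. *Rhox11* and *Rhox12* had a single count in 1 of 10 libraries each and were otherwise at 0, so neither was detectable at this depth. The 7 *Rhox3* copies together did not exceed 19.0 counts in a library.

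**Figure D1:**
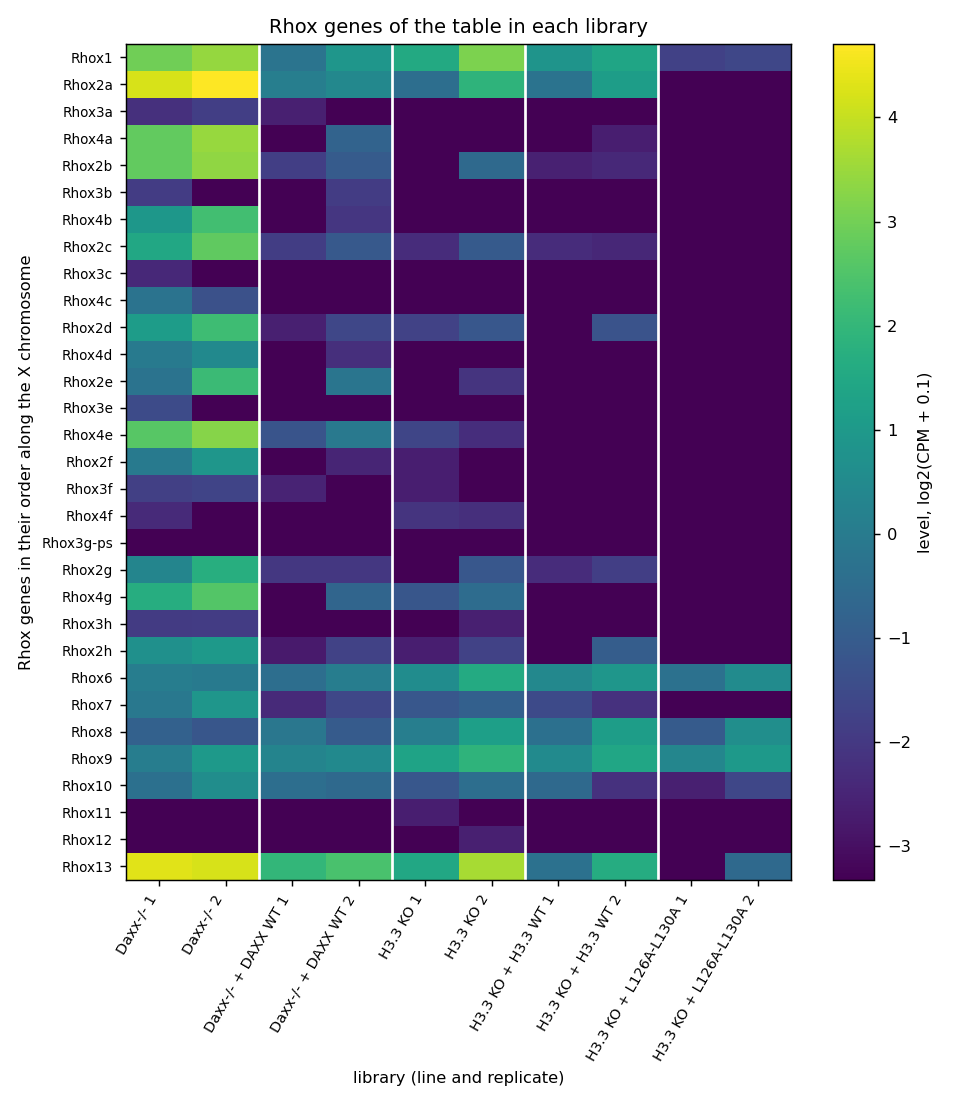
Levels of the 31 Rhox genes of the table (rows, in their order along the X chromosome) in each of the 10 libraries (columns, by line and replicate), as log2(CPM + 0.1) in colour. *Rhox1*, *Rhox13* and most *Rhox2* and *Rhox4* copies are brightest in the Daxx-/- libraries. *Rhox1* and *Rhox13* are darkest in the L126A-L130A libraries. The *Rhox2* and *Rhox4* copies are at 0 there, and most *Rhox4* copies are at 0 in H3.3 WT as well. *Rhox6*, *Rhox8* and *Rhox9* keep a similar colour throughout.

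*Rhox1*, the first gene of the cluster in this order, was at 7.68 and 10.8 CPM in the Daxx-/- libraries and at 0.748 and 1.75 CPM in the DAXX WT libraries. It was at 2.86 and 8.65 CPM in H3.3 KO, 1.70 and 2.53 CPM in H3.3 WT and 0.194 and 0.227 CPM in the L126A-L130A line. The 2 KO lines overlapped, the lines with WT DAXX or WT H3.3 overlapped, and both L126A-L130A libraries lay below all others. The order of the line means was Daxx-/- (9.22 ± 2.18 CPM, SD, n = 2), H3.3 KO (5.76 ± 4.09), H3.3 WT (2.11 ± 0.587), DAXX WT (1.25 ± 0.712) and L126A-L130A (0.211 ± 0.0233), and the last step alone exceeded the sum of the neighbouring SDs.

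*Rhox13*, the last gene of the cluster and known from male germ cells, was at 20.0 and 18.7 CPM in Daxx-/- and at 3.88 and 5.15 CPM in DAXX WT. The H3.3 KO libraries were at 2.69 and 12.5 CPM, those of H3.3 WT at 0.692 and 3.01 CPM and those of L126A-L130A at 0 and 0.568 CPM. Both Daxx-/- libraries lay above all others, the H3.3 KO and DAXX WT libraries overlapped, and so did those of H3.3 KO and H3.3 WT. The L126A-L130A libraries were again the lowest of all, with 0 and 10 counts.

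*Rhox2a* stands at the head of the tandem copies. It was at 18.5 and 26.0 CPM in Daxx-/- and at 0.970 and 1.26 CPM in DAXX WT. In the H3.3 lines it was at 0.653 and 3.63 CPM in H3.3 KO, 0.736 and 2.10 CPM in H3.3 WT and 0 in both L126A-L130A libraries. The Daxx-/- libraries stood apart from all others, and the DAXX WT, H3.3 KO and H3.3 WT libraries overlapped. Of the stretches of 50 bases in its annotated transcripts, 93.4% also occur in another Rhox gene, so the split of reads between copies is uncertain, and older annotations give some copies other letters. The 8 *Rhox2* copies were therefore also summed: 34.4 and 58.5 CPM in Daxx-/-, 1.59 and 3.45 CPM in DAXX WT, 1.08 and 5.62 CPM in H3.3 KO, 1.01 and 3.19 CPM in H3.3 WT and 0 in both L126A-L130A libraries. The sum kept the pattern of the single copy.

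*Rhox4b*, studied as *Ehox* for its part in stem cell differentiation, was at 1.79 and 4.76 CPM in Daxx-/- and at 0 and 0.143 CPM in DAXX WT, and was at 0 in all 6 libraries of the H3.3 lines. It passed the filter on low values only through the Daxx-/- libraries, so that it had to differ from them in the other lines, and 95.6% of its stretches of 50 bases occur in another Rhox gene. The 7 *Rhox4* copies summed to 19.5 and 32.5 CPM in Daxx-/- and 0.327 and 2.10 CPM in DAXX WT. They summed to 0.701 and 0.839 CPM in H3.3 KO, 0 and 0.0602 CPM in H3.3 WT and 0 in the L126A-L130A line. For these copies the H3.3 KO line lay with the low lines, unlike for *Rhox1*.

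*Rhox6* and *Rhox9*, known as *Psx1* and *Psx2* from placenta and germ cells, showed another pattern. *Rhox6* was at 0.962 and 0.887 CPM in Daxx-/- and 0.642 and 0.954 CPM in DAXX WT. It was at 1.40 and 2.92 CPM in H3.3 KO, 1.26 and 1.77 CPM in H3.3 WT and 0.695 and 1.38 CPM in L126A-L130A. *Rhox9* was at 0.958 and 1.89 CPM in Daxx-/-, 1.13 and 1.31 CPM in DAXX WT, 2.40 and 3.66 CPM in H3.3 KO, 1.32 and 2.56 CPM in H3.3 WT and 1.18 and 1.91 CPM in L126A-L130A. Each line overlapped its neighbours in the order of means for both genes, and the order began with H3.3 KO. *Rhox8*, a gene of Sertoli cells that lies between them and was not listed, ranged over similar levels, from 0.344 to 2.22 CPM.

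*Rhox10*, known from spermatogonia, was at 0.675 and 1.42 CPM in Daxx-/-, 0.654 and 0.566 CPM in DAXX WT, 0.351 and 0.646 CPM in H3.3 KO, 0.566 and 0.120 CPM in H3.3 WT and 0.0647 and 0.227 CPM in L126A-L130A. These values rest on between 1 and 25 counts, and no test was made.

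**Figure D2:**
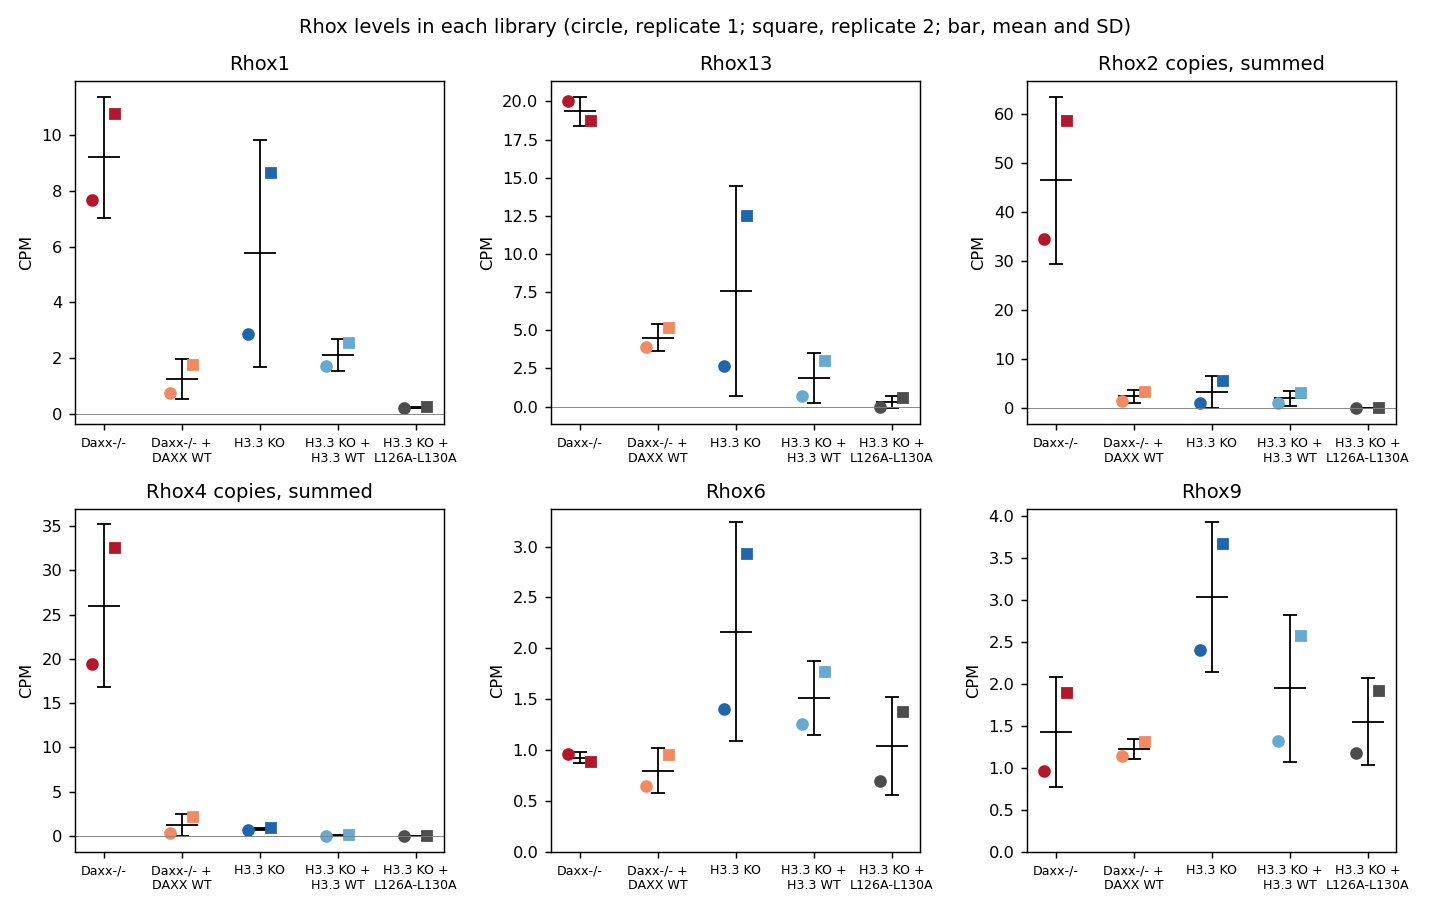
Level in CPM (vertical axes, each with its own scale) of *Rhox1*, *Rhox13*, the summed *Rhox2* copies, the summed *Rhox4* copies, *Rhox6* and *Rhox9* in the 5 lines. Circles are replicate 1, squares replicate 2 and bars the mean and SD of the 2 libraries. The *Rhox2* sum is between 34.4 and 58.5 CPM in Daxx-/- and at most 5.62 CPM elsewhere, and *Rhox6* stays between 0.642 and 2.92 CPM in all lines.

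The libraries of one line differed in the same direction for several of these genes. In each of the 3 H3.3 lines, and in the DAXX WT line, replicate 2 was the higher library for *Rhox1*, *Rhox13*, *Rhox6* and *Rhox9*. In H3.3 KO the libraries held 49 and 134 counts of *Rhox1* and 46 and 193 counts of *Rhox13*.

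With the DAXX transgene, the *Rhox2* and *Rhox4* copies, *Rhox1* and *Rhox13* were lower than in Daxx-/- cells and *Rhox6* and *Rhox9* were about level. *Rhox2a* fell by 4.31 on the log2 scale (SE 0.77, a 20.0-fold lower mean CPM, adjusted p = 0.0457) and was the only listed gene called in this edgeR fit. A call required an adjusted p (Benjamini-Hochberg) under 0.05 and a difference of 2-fold or more in edgeR's quasi-likelihood test, and 0.795% of all genes tested were called lower here. *Rhox1* missed the threshold, with a log2 difference of -2.89 (SE 0.59, adjusted p = 0.0514), as did *Rhox13* (log2 difference -2.11, SE 0.86, adjusted p = 0.199). In bulk RNA, fewer cells that express a gene and less RNA of it per cell cannot be told apart.

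For *Rhox4b* the ratio of mean levels was 42.0 (95% exact counting interval 14.0 to 206, counting error only), with an adjusted p of 0.0809 in the same edgeR test. The sum of the *Rhox4* copies fell by 4.45 (log2, SE 0.73, adjusted p = 0.0360, edgeR). This sum passed the filter on low values only through the Daxx-/- libraries, so its call adds no support. The sum of the *Rhox2* copies missed the threshold (log2 difference -4.21, SE 0.80, adjusted p = 0.0508, edgeR). Both sums were chosen after seeing the data. Of the 9 other Rhox genes tested, *Rhox2c* and *Rhox4e* were called lower and 8 had both DAXX WT libraries below both Daxx-/- libraries. These 8 copies passed the filter through the Daxx-/- libraries alone, so their number gives no support.

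*Rhox6* (log2 difference -0.24, SE 0.55, adjusted p = 0.824, edgeR) and *Rhox9* (log2 difference -0.19, SE 0.52, adjusted p = 0.851, edgeR) gave no detectable difference between these libraries. Of the 6 listed genes tested, 4 had both DAXX WT libraries below both Daxx-/- libraries, against 23.0% of all genes tested. *Rhox4b* is among the 4 and passed the filter only through Daxx-/-, so it adds no support. The median log2 difference of the 6 was -2.50 with *Rhox4b* counted, beside -0.02 over all genes.

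The call of *Rhox2a* was close to the threshold. It was lost with scaling by library size alone (adjusted p = 0.0501, edgeR), with the 4 libraries fitted alone (adjusted p = 0.122) and without Daxx-/- replicate 2 (0.0971), DAXX WT replicate 1 (0.391), DAXX WT replicate 2 (0.140), H3.3 WT replicate 1 (0.0843) or H3.3 WT replicate 2 (0.0830). With each library left out in turn the log2 difference lay between -4.48 and -4.12. *Rhox1* was called in addition by DESeq2 (adjusted p = 0.000455), by edgeR with no filter on low values (adjusted p = 0.0299) and by limma on log2(CPM + 1) (adjusted p = 0.0330) or log2(CPM + 0.1) (adjusted p = 0.0434). limma on these scales also called *Rhox4b* (adjusted p = 0.0219 and 0.0383). Without Daxx-/- replicate 1, the log2 difference was -3.06 for *Rhox1* and -4.48 for *Rhox2a*.

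With WT H3.3, the listed Rhox genes above the limit of detection had lower means than in H3.3 KO cells but none was called. edgeR called 0 of the 6 listed genes lower, against 0.212% of all genes tested, and so did DESeq2 and limma. An unadjusted p under 0.05 in the edgeR test was found for 1 of the 6, and for 1759 of all 13201 genes tested. *Rhox1* had a log2 difference of -1.41 (SE 0.56, adjusted p = 0.320, edgeR) and *Rhox13* was 4.09-fold lower in mean CPM (log2 SE 0.90, adjusted p = 0.379, edgeR). *Rhox2a* differed by -0.53 (SE 0.74, adjusted p = 0.813, edgeR). *Rhox1* was the only listed gene with both H3.3 WT libraries below both H3.3 KO libraries, against 29.7% of all genes. The median log2 difference of the 5 genes above the limit of detection was -0.61, beside 0.02 over all genes.

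The summed *Rhox4* copies held 11.99 and 13 counts in H3.3 KO and 0 and 1 in H3.3 WT, a ratio of 24.9 (95% exact counting interval 4.08 to 1024, adjusted p = 0.232, edgeR). So few counts leave a wide interval. Without H3.3 KO replicate 2, the library with the higher levels, the log2 difference of *Rhox1* was -0.42 and that of *Rhox2a* was 1.16 in the other direction.

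With the L126A-L130A transgene, *Rhox1*, *Rhox2a* and *Rhox13* had their lowest means of the 5 lines, whereas *Rhox6* and *Rhox9* had theirs with DAXX WT. This comparison uses the same H3.3 KO libraries as the one before, so the values of both are not independent. *Rhox1* fell by 4.67 on the log2 scale (SE 0.71, a 27.4-fold lower mean CPM, adjusted p = 0.0325, edgeR) and was the only listed gene called in this fit, where 0.606% of all genes were called lower and 0.182% higher. *Rhox13* was 26.7-fold lower in mean CPM and missed the threshold (log2 difference -4.60, SE 1.09, adjusted p = 0.0842, edgeR).

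*Rhox2a*, at 0 counts in both L126A-L130A libraries, was at least 11.8-fold lower than in H3.3 KO (against a floor of 3 counts per library, adjusted p = 0.0624, edgeR), and the summed *Rhox2* copies were at least 18.4-fold lower (adjusted p = 0.0681, edgeR). The summed *Rhox4* copies were at least 4.23-fold lower (adjusted p = 0.111, edgeR). For *Rhox4b* both lines were at 0 and no fold is given. *Rhox6* (2.09-fold lower mean CPM, log2 SE 0.53, adjusted p = 0.390, edgeR) and *Rhox9* (log2 difference -0.92, SE 0.51, adjusted p = 0.403, edgeR) did not pass the test.

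Of the listed genes, 5 had both L126A-L130A libraries below both H3.3 KO libraries, against 27.0% of all genes. The median log2 difference of the 5 genes above the limit was -3.56 with *Rhox2a* at its bound, beside 0.03 over all genes. The call of *Rhox1* was lost with the 4 libraries fitted alone (adjusted p = 0.0636, edgeR) and without H3.3 KO replicate 2 (0.158), H3.3 WT replicate 1 (0.0658), H3.3 WT replicate 2 (0.0651), L126A-L130A replicate 1 (0.237) or L126A-L130A replicate 2 (0.0753). The log2 difference then lay between -4.72 and -3.67. DESeq2, and edgeR with no filter, called *Rhox1*, *Rhox2a* and *Rhox13*, and limma on log2(CPM + 0.1) called *Rhox1* and *Rhox2a*.

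Set directly against the H3.3 WT line, the L126A-L130A line was lower for *Rhox1* in both libraries, with 3 and 4 counts against 27 and 42 (log2 difference -3.26, SE 0.72, adjusted p = 0.102, edgeR). *Rhox2a* was at least 7.79-fold lower (adjusted p = 0.115, edgeR), and *Rhox13* differed by -2.60 (log2, SE 1.12, adjusted p = 0.392, edgeR). edgeR called 0 of the 6 listed genes, against 0.265% of all genes called lower. An unadjusted p under 0.05 in this edgeR test was found for 3 of the 6, and for 1627 of all 13201 genes tested. DESeq2 called *Rhox1* and *Rhox2a*, and limma called 0. In 3 listed genes both L126A-L130A libraries lay below both H3.3 WT libraries, against 24.2% of all genes.

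**Figure D3:**
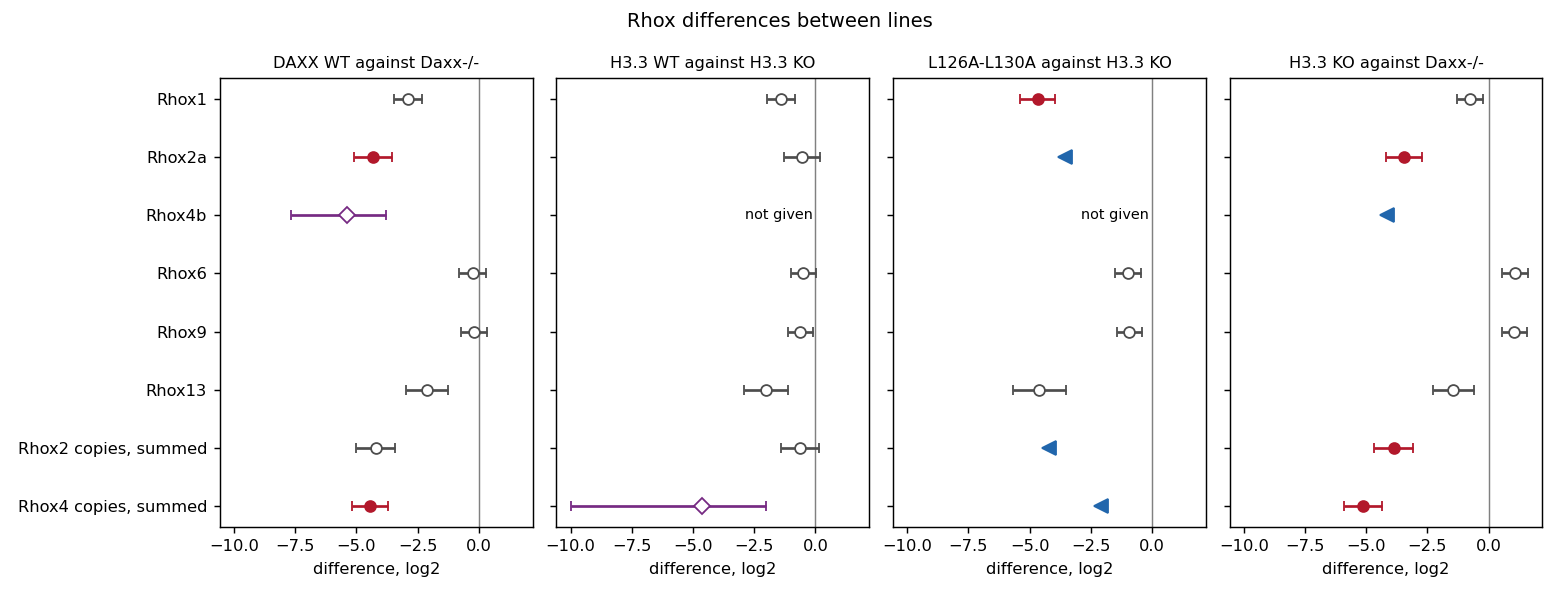
Log2 difference (horizontal axis) of the 6 listed genes tested and of the summed *Rhox2* and *Rhox4* copies (vertical axis) in 4 comparisons. Circles are fitted values with their SE (filled red where called), triangles are bounds against a line at 0, diamonds are ratios with their 95% counting interval, and no value is drawn where both lines were at the limit. *Rhox2a* lies at -4.31 with DAXX WT, and *Rhox6* and *Rhox9* lie near 0 there.

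The 2 KO lines did not share one Rhox level. *Rhox2a* was 10.4-fold lower in H3.3 KO than in Daxx-/- (log2 difference -3.47, SE 0.74, adjusted p = 0.0143, edgeR) and *Rhox4b* at least 17.7-fold lower (adjusted p = 0.0157, edgeR), so 2 of the 6 listed genes were called lower, where 5.98% of all genes were called lower and 5.71% higher. The summed *Rhox2* copies (log2 difference -3.88, SE 0.79, adjusted p = 0.0123, edgeR) and *Rhox4* copies (-5.13, SE 0.77, adjusted p = 0.00390, edgeR) were called as well. Of the 9 other Rhox genes tested, 7 were called lower, all of them *Rhox2* or *Rhox4* copies. These copies, the *Rhox4* sum and the listed *Rhox4b* passed the filter only through Daxx-/-, so their calls give no support.

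*Rhox1* (log2 difference -0.76, SE 0.54, adjusted p = 0.330, edgeR) and *Rhox13* (-1.45, SE 0.84, adjusted p = 0.236, edgeR) did not pass the test between the KO lines. *Rhox6* (1.09, SE 0.53, adjusted p = 0.168, edgeR) and *Rhox9* (1.05, SE 0.51, adjusted p = 0.165, edgeR) had higher means in H3.3 KO. In 3 listed genes both H3.3 KO libraries lay below both Daxx-/- libraries, against 25.9% of all genes, and in 2 (*Rhox6* and *Rhox9*) both lay above, against 36.1% of all genes. *Rhox4b* was among the 3 that lay below and is counted in the median log2 difference, which was -1.10 beside -0.02 over all genes. The lines differ in strain, in derivation and in Y-linked RNA, and these and the genotype cannot be told apart. The median log2 difference was -0.31 over 460 X-linked genes and -0.01 over 11286 autosomal genes. The call of *Rhox2a* held in each alternative and without any single library.

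The change with DAXX WT was also set against the change with H3.3 WT in one fit. The difference between the changes was -3.77 for *Rhox2a* (log2, SE 1.04) and was not called (adjusted p = 0.223, edgeR). It was -1.48 for *Rhox1* (SE 0.79, adjusted p = 0.438, edgeR) and -0.11 for *Rhox13* (SE 1.24, adjusted p = 0.976, edgeR). edgeR called 0 listed genes, against 0.0379% of all genes called lower, DESeq2 called *Rhox2a* and limma called 0. An unadjusted p under 0.05 in the edgeR test was found for 1 listed gene, and for 1839 of all 13201 genes tested. A difference between the responses was therefore not shown for the listed genes at this depth and number of libraries.

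Genes beside the cluster on the X chromosome were read for comparison. Of 17 listed, 13 were tested, and 0 were called by edgeR with DAXX WT, with H3.3 WT or with L126A-L130A against the KO line. *Rnf113a1*, a RING finger gene on one side, had a log2 difference of -0.05 (SE 0.31, adjusted p = 0.935, edgeR) with DAXX WT. *Zbtb33*, which encodes the methyl-CpG binding protein Kaiso and lies on the other side, had one of 0.44 (adjusted p = 0.185, edgeR). Between the KO lines, *Rpl39* (log2 difference -1.14, adjusted p = 0.00140, edgeR) and *Ndufa1* were called lower in H3.3 KO. No gene other than Rhox genes was tested inside the cluster.

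**Figure D4:**
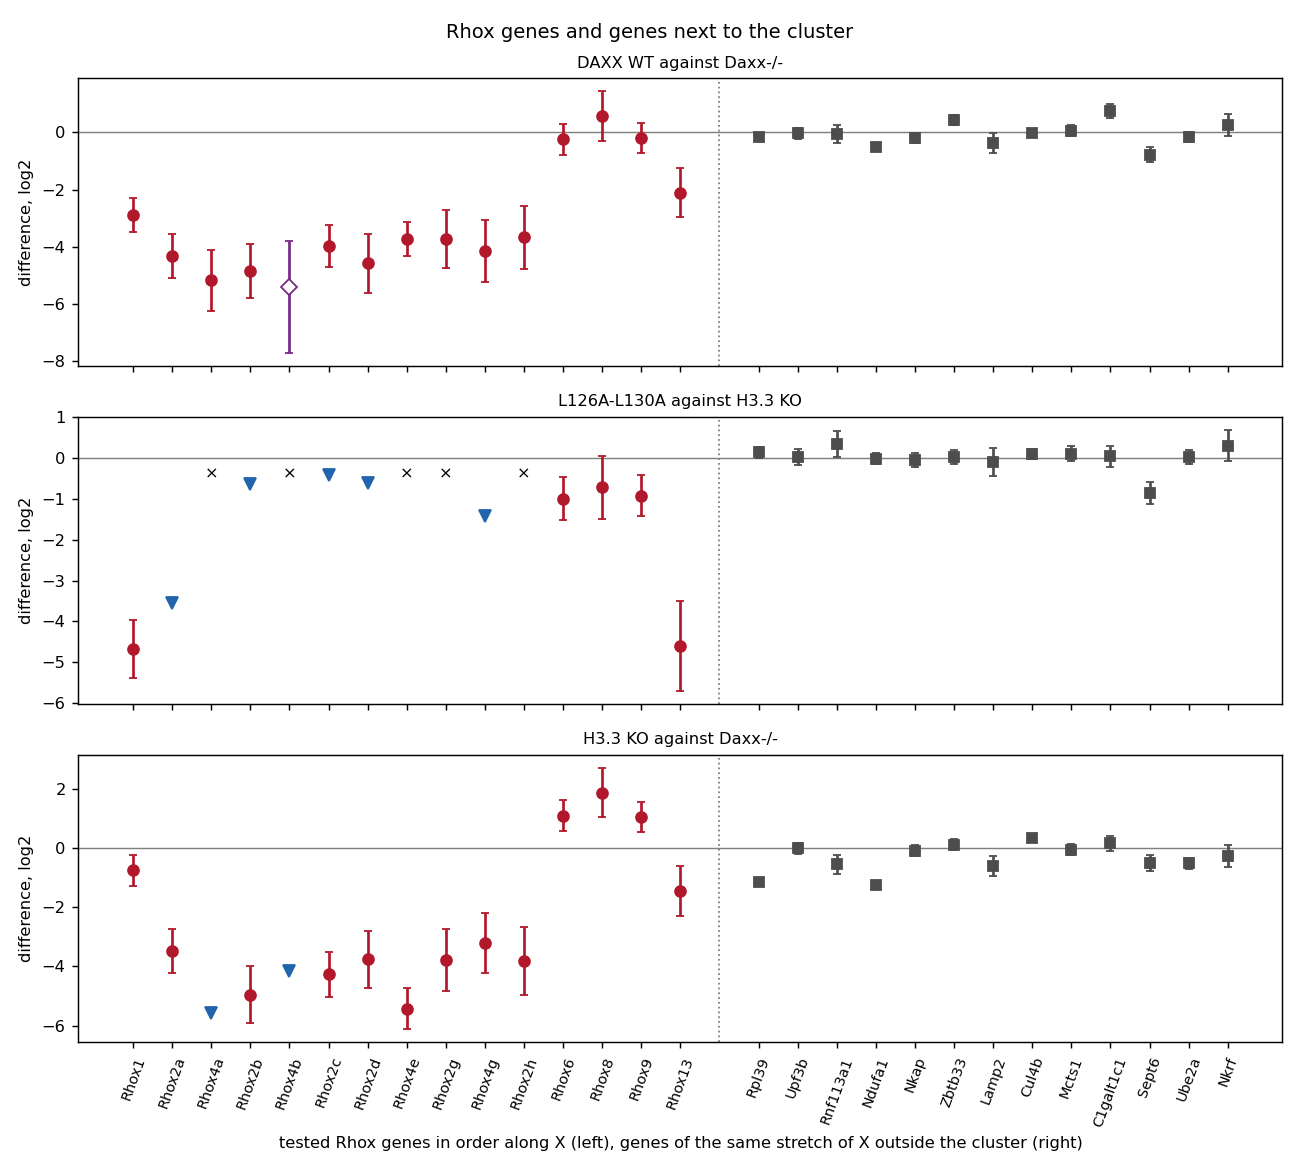
Log2 difference (vertical axes) of the 15 tested Rhox genes in their order along the X chromosome (left, red circles with SE) and of 13 genes of the same stretch of the chromosome outside the cluster (right, grey squares with SE) in 3 comparisons. Triangles are bounds against a line at 0, the diamond is a ratio with its 95% counting interval, and a cross marks a gene for which no fold is given. The *Rhox2* and *Rhox4* copies lie below -3 with DAXX WT, and *Rhox6*, *Rhox8*, *Rhox9* and the genes outside the cluster lie within 1 of zero.

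Genes of DNA and H3K9 methylation, some of which are known to silence the cluster, were measured in the same libraries. All 21 listed genes were tested, and edgeR called 0 of them in the comparisons of a transgene with its KO line or of the transgenes with each other. The summed level of the list was between 4054 and 5049 CPM in Daxx-/-, 5317 and 5730 in DAXX WT, 4540 and 4732 in H3.3 KO, 4828 and 4877 in H3.3 WT and 5016 and 5556 CPM in L126A-L130A. *Dnmt3b*, a de novo DNA methyltransferase, was at 80.9 and 44.8 CPM in Daxx-/- and 136 and 83.8 CPM in DAXX WT, and at 64.4 and 61.2 CPM in H3.3 KO, 51.9 and 52.8 CPM in H3.3 WT and 268 and 102 CPM in L126A-L130A. Both DAXX WT libraries and both L126A-L130A libraries lay above their KO line and both H3.3 WT libraries lay below it for *Dnmt3b*. None of these differences was called (adjusted p = 0.345, 0.136 and 0.883 in that order, edgeR). *Dnmt3a* was at 66.7 and 50.7 CPM in DAXX WT, below its 80.1 and 83.2 CPM in Daxx-/-. In L126A-L130A it was at 64.3 and 67.7 CPM, between the H3.3 KO libraries (107 and 60.7 CPM). The part of these genes in the Rhox levels was not tested. Between the KO lines *Tet2*, *Suv39h2* and *Mbd2* were called higher in H3.3 KO. Of the linker histone H1 genes, 6 of 9 were tested, and *H1f0* alone was called, higher in H3.3 KO than in Daxx-/-.

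Markers of other cell types that express Rhox genes were read as well. *Tpbpa* and *Prl3d1*, genes of placental trophoblast, were at 0 in all 10 libraries. *Eomes* of the same list was between 6.68 and 23.8 CPM in all 10, and *Gata2* was at 1.35 and 35.6 CPM in Daxx-/-. The 10 trophoblast markers with a row summed to 22.1 and 71.2 CPM in the Daxx-/- libraries and to between 14.6 and 34.8 CPM elsewhere, with replicate 2 of Daxx-/- the highest library. edgeR called 0 of the 4 trophoblast markers tested with a transgene, and *Ascl2* alone between the KO lines, lower in H3.3 KO. The 6 Sertoli cell markers summed to at most 19.7 CPM, again in Daxx-/- replicate 2, with *Gata1* called lower in H3.3 KO than in Daxx-/-, and the 12 markers of primitive and extraembryonic endoderm to between 68.2 and 250 CPM, with the highest value in H3.3 WT. *Col4a1* of that list was called lower in L126A-L130A against both H3.3 KO and H3.3 WT, and lower in H3.3 KO than in Daxx-/-. The 8 markers of formative and primed epiblast summed to between 59.7 and 277 CPM, with the highest value in L126A-L130A, and *Otx2* was called lower in H3.3 KO than in Daxx-/-. The part of these markers in the Rhox levels was not tested.

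The 11 germ cell markers with a row were lower in sum in each line with a transgene than in its KO line. They summed to between 213 and 294 CPM in Daxx-/-, 138 and 170 in DAXX WT, 318 and 476 in H3.3 KO, 195 and 245 in H3.3 WT and 86.0 and 145 CPM in L126A-L130A, without overlap between a transgene line and its KO line. Not every member fell. *Nanos3* was higher with each transgene (log2 difference 1.10 with DAXX WT, 0.77 with H3.3 WT and 1.18 with L126A-L130A). *Ddx4* was higher with DAXX WT (0.34), and *Dnd1* (0.50) and *Prdm14* (0.44) with H3.3 WT. edgeR called none of these rises. *Dazl*, an RNA-binding protein of germ cells, was at 98.3 and 255 CPM in H3.3 KO and at 5.76 and 16.9 CPM in L126A-L130A and was called lower there. Between the KO lines *Sycp3* was called higher and *Dnd1* lower in H3.3 KO. The part of germ cell transcripts in the Rhox levels was not tested.

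The genes outside the cluster whose levels were most like those of a Rhox gene were found by Pearson's r of log2(CPM + 1) over the 10 libraries. These libraries share 5 lines, so r mostly follows the line means, and it is given as a description. *Rhox1* was most like *Scml2* (r = 0.98), with mean levels of 129 CPM in Daxx-/-, 17.1 in DAXX WT, 71.2 in H3.3 KO, 25.8 in H3.3 WT and 3.44 CPM in L126A-L130A. *Dmrtc1c* and *Dmrtc1c2*, 2 symbols with the same values, followed. *Rhox2a* was most like *Brsk2* (r = 0.99), *Xlr4c* and *Xlr5c*. *Rhox13* was most like *1700013H16Rik* (r = 0.97), *Ptprj* and *1700011F14Rik*. *Rhox4b* was most like *Cxcl10*, *Gm595* and *Tmie*, *Rhox6* like *Zswim6*, *Tifab* and *AF366264*, and *Rhox9* like *Samd4*, *Echdc3* and *Nudt6*. As *Rhox4b* had counts in 3 of the 10 libraries and passed the filter only through Daxx-/-, its r mostly follows that line.

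Among the Rhox genes themselves, r on the same scale was 0.90 between *Rhox1* and *Rhox13*, 0.89 between *Rhox1* and *Rhox2a* and 0.88 between *Rhox6* and *Rhox9*. Between *Rhox2a* and *Rhox6* it was 0.00 and between *Rhox1* and *Rhox6* 0.38. *Rhox4b* had an r of 0.90 with *Rhox2a*, but of 0.67 with *Rhox1* and 0.69 with *Rhox13*.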

How the data were processed

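Polyadenylated RNA was sequenced from 5 mESC lines with 2 replicates each, grouped by the line named in the labels. The authors aligned reads with Bowtie and ran RSEM (versions not given in the sources used here), and the submitters' processing notes name build mm9. Expected counts for each gene were deposited under the name TPM, and they are not normalized: libraries sum to between 15463625 and 21396585 and between 61.4% and 67.6% of values are whole numbers.

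The counts were rounded, and libraries were scaled by factors from the median of ratios (0.936 to 1.04). Genes with 1 CPM or more in 2 or more libraries (13201) entered one edgeR (version 4.0.16) quasi-likelihood fit of all 10 libraries in R 4.3.3, with 6 comparisons. The SE of a log2 difference is its size over the square root of F. The common dispersion was 0.0522. limma (3.58.1) and DESeq2 (1.42.0) were alternatives, with other scalings, filters, a replicate block, each comparison alone, summed copies (chosen after seeing the data) and each library left out. The fit was tested on simulated data. CPM used library totals. A line with at most 3 counts in every library was taken as at the limit. Intervals and floors cover counting error only, and a bound sets the mean of the higher line against the floor. Replicates differed by more than sampling noise in every line (chi-square per gene of 10.9 to 73.3).

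The genes, lists and tests were chosen with earlier results of these data known. Named genes are the listed Rhox genes, other Rhox genes as counts, called members of the fixed lists with up to 4 examples, and the 3 genes most like each tested Rhox gene. Transcript lengths are from GENCODE, and gene order and promoters from RefSeq, both GRCm38, so no coordinates of the table's genes are given. Gene symbols matched RefSeq directly or by an older symbol for all 31 Rhox genes. Python 3.11.15 was used for the remaining steps.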

Additional observations from a re-analysis of the deposited data

How the results depend on the processing

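Of 630 values recomputed under an alternative (32 results), 581 kept their direction and their side of the threshold, 22 gained a call, 17 lost one and 10 changed direction. The number of listed Rhox genes called depended on the fit. With DAXX WT it was 1, and it was 0 with library size alone or each comparison alone, 2 with no filter on low values or DESeq2, 3 with limma on either log scale, and between 0 and 2 with each library left out. With L126A-L130A against H3.3 KO it was 1, and it was 3 with no filter or DESeq2, 2 with limma on log2(CPM + 0.1), 0 with each comparison alone, and between 0 and 1 with each library left out. Against H3.3 WT it was 0, and 2 with DESeq2. Between the KO lines it was 2, and 1 with 1 CPM required in 4 libraries or with DESeq2, and between 1 and 2 with each library left out. For the difference between the DAXX and H3.3 changes it was 0, and 1 with DESeq2. Fitting a comparison alone uses fewer libraries. *Rhox4b* reached 1 CPM only in the 2 Daxx-/- libraries, so it was not tested with 1 CPM required in 4 libraries. Nor was *Rhox4b* tested with either Daxx-/- library left out. The cause was otherwise not tested.

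The counts of all genes called moved too. With DAXX WT they were 143 in the fit reported, 123 with library size alone, 233 with no filter, 531 with DESeq2 and 1 with the comparison alone. limma called 240 on log2(CPM + 1) and 189 on log2(CPM + 0.1) there. With L126A-L130A against H3.3 KO they were 104 in the fit reported, 444 with DESeq2 and 29 with the comparison alone.

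The replicate numbers are shared between lines, but deviations from the line means correlated over 0.1 in 7 of 10 pairs of lines (-0.05 to 0.56, with 0.56 between Daxx-/- and DAXX WT and 0.06 between H3.3 KO and L126A-L130A), and no source used here says what a number marks, so the block stayed an alternative. With a replicate block, 3 listed genes were called with DAXX WT (*Rhox1*, *Rhox2a* and *Rhox4b*, adjusted p = 0.00771, 0.00790 and 0.0236, edgeR). Over all genes the block called 621 with DAXX WT, against 143 in the fit reported. The block also called 3 listed genes with L126A-L130A against H3.3 KO (*Rhox1*, *Rhox2a*, *Rhox13*) and 2 against H3.3 WT (*Rhox1*, *Rhox2a*). It called 0 listed genes in the comparison of H3.3 WT with H3.3 KO.

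Changes of direction, all of small or uncalled differences, came with single libraries left out: *Rhox9* with DAXX WT ranged from -0.56 to 0.30, *Rhox2a* with H3.3 WT from -1.41 to 1.16, *Rhox6* with H3.3 WT from -0.92 to 0.12, and *Rhox9* with L126A-L130A against H3.3 WT from -0.69 to 0.21 (log2). For the difference between the DAXX and H3.3 changes, *Rhox6* ranged from -0.36 to 0.68, with -0.0021 without DAXX WT replicate 2, and *Rhox13* from -1.58 to 1.26, with 0.011 without Daxx-/- replicate 1, 0.047 without DAXX WT replicate 1 and 0.62 without H3.3 KO replicate 1. Levels near 1 CPM limit *Rhox6* and *Rhox9*, which rest on between 10.8 and 56.7 counts per library.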
